A study of Rattus norvegicus with 4 samples.

Results

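The genes described are scavenger receptors, the surface and lysosomal receptors with which macrophages bind modified lipoproteins, debris and mineral particles. They were taken as a list of 9 gene symbols that holds Marco and Msr1, the receptors usually named for titanium dioxide and silica, and the rule uses no measured value, although the list was drawn up with earlier results of these data known. Of the 9 genes, 8 had at least 1 probe whose accession matched the symbol, with 10 probes in all, among 16581 named genes on the array. Stab1, which encodes the endocytic receptor stabilin-1, had no matched probe, so no value is given for it. RNA came from NR8383 cells, an established line of rat alveolar macrophages that grows partly attached and partly floating in medium with fetal bovine serum. The cells had been kept for 20 passages, seeded 48 h ahead in flasks, and exposed for 4 h to TiO2 of the type NM105 (P25, a mixture of anatase and rutile) at 3 cm2 of particle surface per cm2 of culture. All 4 samples, called biological replicates in the design, received this exposure, and each was hybridised to 1 array in 1 colour (Cy3). Untreated cultures were not analysed here, so the values are levels in exposed cells of 1 cell line and none of them is a response to the particles.

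Scavenger receptors are grouped into structural classes that share ligands more than they share sequence. Class A receptors such as Msr1, Marco and Colec12 carry collagen-like stalks and bind polyanions, and Marco and Msr1 are known for the uptake of unopsonised particles by alveolar macrophages. Cd36 and Scarb1, of class B, cross the membrane at both ends and take up oxidised lipoproteins, fatty acids and cholesterol esters. Cd68 lies mostly in late endosomes and lysosomes, Olr1 (LOX-1) is a lectin-like receptor for oxidised low-density lipoprotein, and Cd163 clears complexes of haemoglobin and haptoglobin.

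The arrays' files hold no probe sequences. RefSeq promoters (build GRCr8) were found for 7 of the 9 genes, and 4 of these are printed because these genes cover the outcomes described below: signal on all 4 arrays (Cd68, Cd36), on 3 of them (Olr1) and on none (Marco). Each runs 5′ to 3′ from 250 bases before to 50 bases after the start site. Capitals mark GAGGAA, the core bound by PU.1, or TGAGTCA, the AP-1 element, on either strand; none of the marked stretches overlaps another.
Cd68: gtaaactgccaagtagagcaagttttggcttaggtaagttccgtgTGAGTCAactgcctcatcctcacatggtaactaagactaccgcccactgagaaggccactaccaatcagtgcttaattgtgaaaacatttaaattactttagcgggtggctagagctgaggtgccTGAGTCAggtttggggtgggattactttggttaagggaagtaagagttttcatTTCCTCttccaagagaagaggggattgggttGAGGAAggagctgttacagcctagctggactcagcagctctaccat
Cd36: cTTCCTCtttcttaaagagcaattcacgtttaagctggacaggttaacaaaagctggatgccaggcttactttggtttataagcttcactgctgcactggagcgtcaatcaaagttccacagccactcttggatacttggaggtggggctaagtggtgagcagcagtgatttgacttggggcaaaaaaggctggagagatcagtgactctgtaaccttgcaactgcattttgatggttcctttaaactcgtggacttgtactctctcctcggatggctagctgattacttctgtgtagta
Olr1: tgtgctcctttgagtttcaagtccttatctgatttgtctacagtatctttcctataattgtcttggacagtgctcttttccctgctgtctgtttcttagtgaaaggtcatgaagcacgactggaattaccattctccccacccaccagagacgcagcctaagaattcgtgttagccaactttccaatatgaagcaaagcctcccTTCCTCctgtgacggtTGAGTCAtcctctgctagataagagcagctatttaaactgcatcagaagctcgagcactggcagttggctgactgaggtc
Marco: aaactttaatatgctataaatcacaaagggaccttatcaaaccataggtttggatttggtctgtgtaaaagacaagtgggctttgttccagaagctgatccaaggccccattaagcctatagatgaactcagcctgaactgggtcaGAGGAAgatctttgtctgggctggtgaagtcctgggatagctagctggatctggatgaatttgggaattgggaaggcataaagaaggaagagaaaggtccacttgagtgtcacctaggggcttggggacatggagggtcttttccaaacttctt
The Cd68 promoter (chr10:54882392-54882691, minus strand) held both motifs, each at 2 places. The Olr1 promoter (chr4:164634498-164634797, minus strand) held each at 1 place. Those of Cd36 (chr4:18246332-18246631, plus strand) and Marco (chr13:34201206-34201505, minus strand) held GAGGAA at 1 place and no TGAGTCA. Of 33469 promoters of the same length, 27.6% held GAGGAA and 4.63% held TGAGTCA. Of the 7 receptor promoters found, 6 held GAGGAA and 2 held TGAGTCA. Among the genes with no detected signal, the promoter of Cd163 held neither, while those of Marco and Colec12 held GAGGAA at 1 place each. A match is a stretch of letters, and binding was not measured.

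Signal is given as processed intensity, the spot's brightness after the scanner software removed background, and a probe counts as detected where that software called over 50% of its spots well above background. A gene counts as detected where any of its probes did. Of the 8 measured receptors, 3 (Cd36, Scarb1 and Cd68) were detected on all 4 arrays, 1 (Olr1) on 3 arrays, and 4 (Msr1, Marco, Colec12 and Cd163) on none. Over all named genes, 35.2% passed on every one of the 4 arrays and 53.7% on none, so the receptors' shares of 37.5% and 50% lay close to those of the array as a whole. The arrays differed in brightness: the 75th percentile of signal over detected probes was 1431, 585, 767 and 831 units on replicates 1 to 4. Probes detected numbered 14407, 10809, 12038 and 11911, and the dimmest probe called lay at 14.5 to 17.8 units. The part of array brightness in the calls was not tested. Of 12 macrophage markers, 11 passed on every array, Ptprc, Spi1 and Csf1r among them, and Adgre1 (F4/80) on none. None of 8 epithelial markers (such as Epcam and Cdh1) or 6 lymphocyte markers (such as Cd3e and Cd3d) passed on any array. Of 8 fibroblast and endothelial markers, Pecam1, which macrophages also express, and Cdh5 passed on every array. A further 1 passed on some arrays and 5, with Col1a2 and Col3a1, on none. On replicates 2 to 4 the signal of Cdh5 lay close to that of the dimmest probe called.

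**Figure D1:**
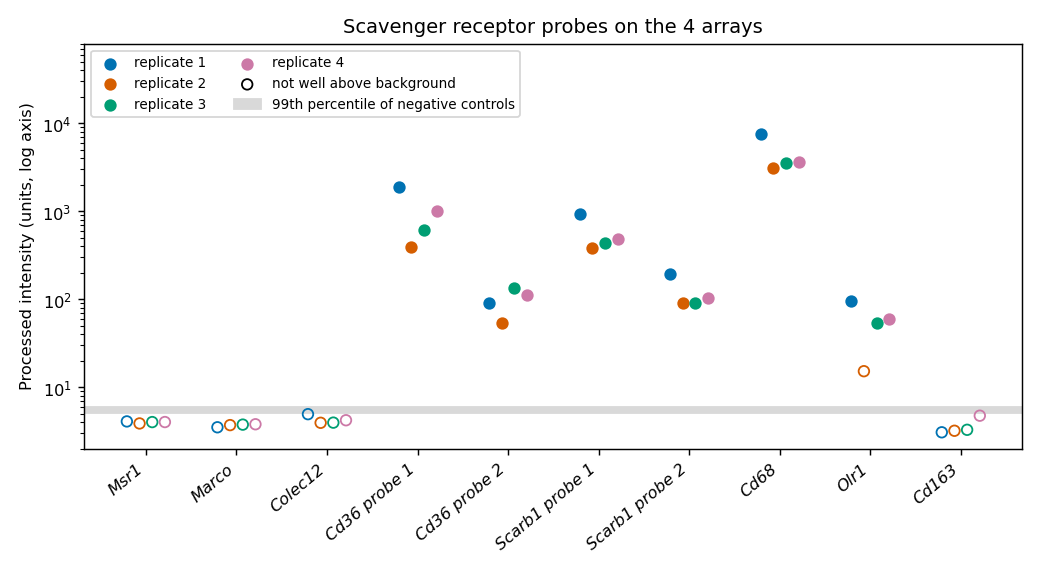
Processed intensity (log axis) of each of the 10 receptor probes on the 4 arrays, with open circles for probes not well above background and a grey band for the 99th percentile of negative controls (5.07 to 5.96 units). All values of Msr1, Marco, Colec12 and Cd163 lie below the band, and Olr1 on replicate 2 lies above it without being called.

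The class A receptors gave no signal that could be told from the negative controls, which are spots without a rat target. Msr1, the type A macrophage scavenger receptor, stood at 4.11, 3.90, 4.04 and 4.04 units on replicates 1 to 4. Marco, which has a collagen-like stalk and a cysteine-rich tip, stood at 3.53, 3.73, 3.78 and 3.82 units. Colec12, a collectin that binds carbohydrates and oxidised lipoprotein, stood at 4.97, 3.97, 3.98 and 4.24 units. The 3 genes thus stayed within a narrow band on every array, although the arrays' own brightness differed more than 2-fold.

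Set against the controls of the same array, the picture was the same for each of them. The median negative control was 3.51, 3.58, 3.67 and 3.82 units, and the 99th percentile 5.62, 5.48, 5.07 and 5.96 units. Marco was brighter than 52.0%, 65.2%, 59.2% and 48.9% of the controls, which is the middle of their range. Msr1 was brighter than 82.2%, 76.2%, 82.9% and 76.7% of them, and Colec12 than 93.8%, 79.8%, 77.6% and 84.9%, so both lay in the upper part of that range without leaving it. Each of these genes was read by 1 matched probe at 1 spot, so no second matched probe bears on the readings. Only 46.3% of gene probes had a symbol, and the rest were not searched for these genes. A probe that is not well above background gives only a bound: these transcripts were not detectable at this signal, and may still be present.

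Cd163, the haemoglobin scavenger receptor, was read by 1 spot too and stood at 3.09, 3.22, 3.30 and 4.78 units. On replicates 1 to 3 it was brighter than 12.3% to 16.4% of the negative controls, and on replicate 4 than 95.7% of them. It was called well above background on no array, and the reading on replicate 4 lay below that array's 99th percentile of controls.

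Olr1, the receptor for oxidised low-density lipoprotein, was called on 3 of the 4 arrays. It stood at 95.6, 15.3, 54.7 and 59.7 units on replicates 1 to 4, so replicate 2 was the low one. A level, below, is the log2 intensity minus the log2 of the array's 75th percentile over probes detected on all 4 arrays, which puts the same probe on different arrays on 1 scale; levels of different probes are not compared, since each probe has its own brightness. On the 3 arrays that called it, Olr1 was at −3.90, −3.81 and −3.80, a mean of −3.84 ± 0.06 (SD, n = 3). Those arrays agreed closely. At that mean level replicate 2, the dimmest array, would have read 40.9 units. The probe was not called there, so only a bound holds. Taken at 15.5 units, the dimmest probe called on that array, Olr1 would be 2.64-fold lower. The detection limit of the Olr1 probe itself was not known, and the 1st percentile of called probes there was 17.7 units. The fold is therefore approximate and could be smaller. The reading of 15.3 units still exceeded all 302 negative controls used on that array, and was 2.79 times their 99th percentile. Olr1 therefore counted as detected on all 4 arrays when the limit was set at the 99th percentile of the controls instead. With replicate 2 left out, it was detected on all 3 arrays that remain.

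Cd68, the lysosomal glycoprotein used as a macrophage marker, stood at 7529, 3087, 3511 and 3637 units, at least 563 times the 99th percentile of the controls on each array. The factor of 2.44 between the brightest and the dimmest reading shrank once each array was set against its own reference. Its levels were 2.40, 2.40, 2.19 and 2.13, a mean of 2.28 ± 0.14 (SD, n = 4), with the highest array 1.21-fold above the lowest. Among 5824 named genes with a probe called on every array, an SD of 0.23 was the median, and 80.2% had a higher SD than Cd68.

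Scarb1 (SR-B1), the receptor for high-density lipoprotein, was read by 2 probes, both detected on all 4 arrays. The brighter probe stood at 930, 380, 436 and 492 units, which gives levels of −0.62, −0.62, −0.82 and −0.76. Their mean was −0.70 ± 0.10 (SD, n = 4), and 91.6% of the 5824 genes had a higher SD. The dimmer probe stood at 196, 90.8, 91.2 and 104 units, with levels of −2.87, −2.69, −3.07 and −3.00 and a mean of −2.91 ± 0.17 (SD, n = 4). Both Scarb1 probes read replicates 1 and 2 above their own mean and replicates 3 and 4 below it. The difference between the probes moved by no more than 0.19 over the arrays.

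Cd36, the fatty acid and oxidised lipoprotein receptor of class B, varied most of the 3 receptors detected on all arrays. Its brighter probe, printed at 10 spots, stood at 1895, 397, 622 and 1021 units as the geometric mean over its spots. The levels were 0.41, −0.56, −0.30 and 0.30, a mean of −0.04 ± 0.47 (SD, n = 4), with replicates 1 and 4 above the mean and replicates 2 and 3 below. The highest array was 1.95-fold above the lowest, and 7.50% of the 5824 genes had a higher SD. Among 969 probes that were printed at 10 spots and detected on all arrays, the median SD between arrays was 0.20 and 25 probes had a higher one.

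**Figure D2:**
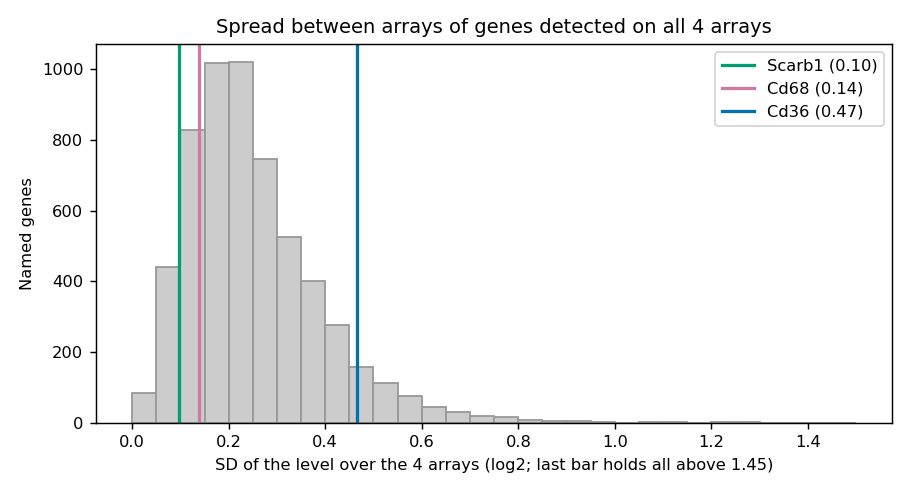
Histogram of the SD over the 4 arrays (x axis, log2) of the 5824 named genes with a probe detected on all 4 arrays (y axis, number of genes), with lines at the receptors detected on all 4. Scarb1 (0.10) and Cd68 (0.14) lie left of the median of 0.23, and Cd36 (0.47) lies right of it.

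The repeated spots of Cd36 give the error of a reading within an array. They share 1 culture's RNA and hybridisation, so their spread does not cover that between cultures. On replicates 2, 3 and 4 the spots used lay close together, with SDs of 0.05, 0.05 and 0.06 on the log2 scale. Outlier spots, 1 on replicate 2 and 2 on replicate 3, were left out, so these SDs do not cover them. Readings of the spots used ran from 377 to 419 units on replicate 2, from 588 to 654 on replicate 3 and from 975 to 1090 on replicate 4. The outlier spots of replicate 3 read 696 and 700 units, above the range given for that array. After scaling, the levels of these spots ran from −0.63 to −0.48, from −0.38 to −0.23 and from 0.23 to 0.39, so the spots of these 3 arrays did not overlap. With the 1 outlier spot of replicate 2 kept, at 459 units and a level of −0.35, replicates 2 and 3 did overlap.

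Replicate 1 differed in this respect, since its 10 Cd36 spots ran from 995 to 2656 units with an SD of 0.55. Of the 969 probes printed at 10 spots, 28 had a larger spread between spots on that array, where the median was 0.12. The readings differed by place on the array. The 6 spots in columns beyond 50 read 2410 to 2656 units, and the 4 spots in columns up to 50 read 995 to 1513 units. Up to column 50 the reading rose with the column, from 995 units in column 9 to 1513 in column 43. The spots beyond column 50 were 2.02-fold brighter than those up to it, a difference of 1.01 on the log2 scale. On replicates 2, 3 and 4 the same spots, with outlier spots left out, differed between the sides by 0.01 to 0.04 in size. From the spots beyond column 50 alone, chosen after the values were seen, Cd36 was at 0.81, −0.55, −0.32 and 0.31 on replicates 1 to 4, and its SD was 0.62. From the spots up to column 50 it was at −0.20, −0.56, −0.28 and 0.28, and its SD was 0.35. Replicate 1 was then below replicate 4, so the order of these arrays depends on which spots are read. The part of the spot position in the level of Cd36 on replicate 1 was not tested.

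**Figure D3:**
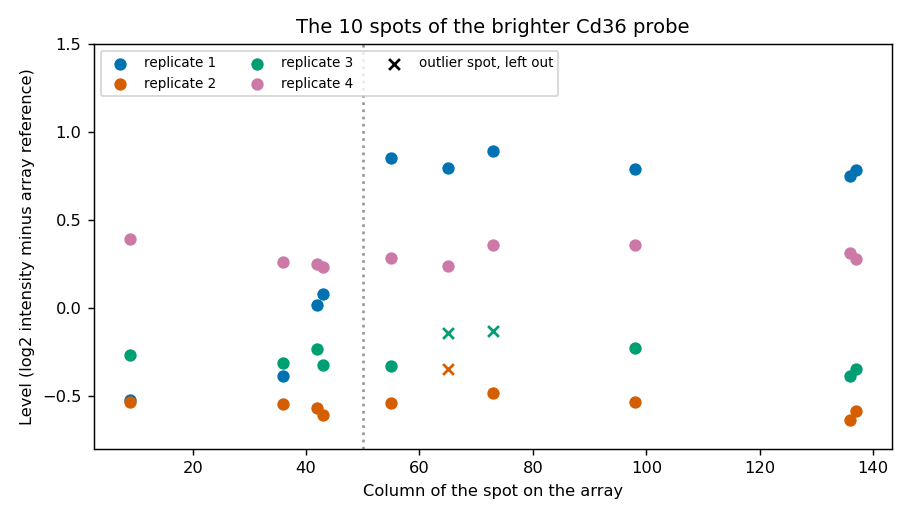
Level (y axis, log2 intensity minus the array reference) of each of the 10 spots of the brighter Cd36 probe against the column of the spot on the array (x axis), by replicate, with crosses for outlier spots left out and a dotted line at column 50. The spots of replicates 2 to 4 lie on nearly flat bands, while those of replicate 1 reach 0.89 beyond column 50 and fall to −0.52 up to it.

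The second Cd36 probe, printed at 1 spot in column 73 and matched to the same transcript (NM_031561), gave another order of the arrays. It stood at 90.2, 53.7, 136 and 114 units, well above background on all 4. Its levels were −3.99, −3.44, −2.49 and −2.87, a mean of −3.20 ± 0.66 (SD, n = 4). This probe was lowest on replicate 1 and highest on replicate 3, whereas the brighter one was highest on replicate 1 and lowest on replicate 2. The probes read replicates 2 and 4 on the same side of their own means and replicates 1 and 3 on opposite sides.

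The difference between the probes of Cd36 was 4.39, 2.89, 2.19 and 3.17 on replicates 1 to 4, with an SD of 0.92. For Scarb1 this SD was 0.09. Among 708 genes with exactly 2 probes detected on all arrays, the median SD of such a difference was 0.20, and 3 genes lay above Cd36. The dimmer probe was lowest on replicate 1 and highest on replicate 3 under each of the 5 other scalings, background corrections or spot rules run for it. The brighter one was highest on replicate 1 under 4 of these and on replicate 4, at 5.51 against 5.47, when the reference was taken over all gene probes. A level of Cd36 on these arrays therefore stands for a probe, and no single order of the 4 cultures holds for both probes.

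**Figure D4:**
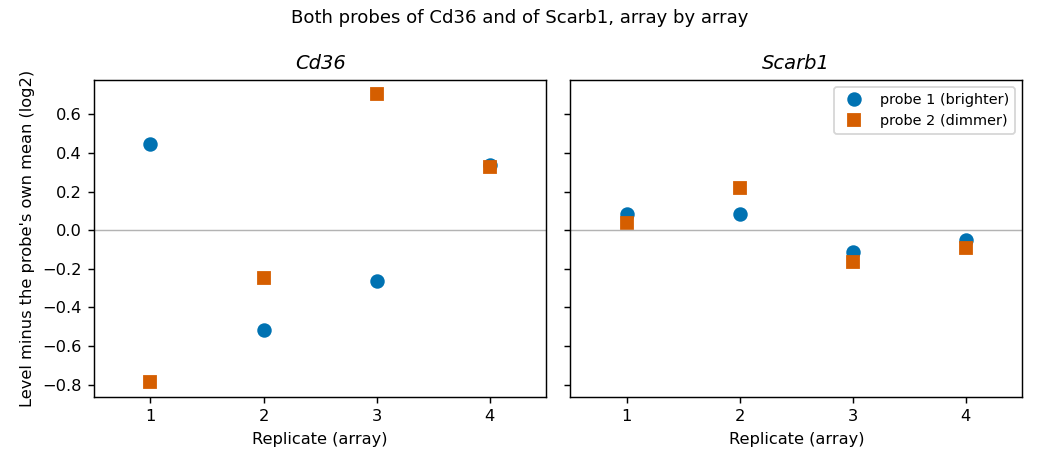
Level minus the probe's own mean (y axis, log2) on each array (x axis) for both probes of Cd36 and of Scarb1. The Scarb1 probes move together, while those of Cd36 lie on opposite sides of 0 on replicates 1 and 3.

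The 3 receptors detected on all arrays were then set against the pattern of all 5823 other genes over the 4 arrays, by the root mean square (RMS) difference of deviations from the gene's own mean. Cd36 and Scarb1 were taken at their brighter probes. The second Cd36 probe, which gave another order of the arrays, was not compared in this way. Scarb1 and Cd68 lay 0.06 apart, both highest on replicates 1 and 2, and Cd36 lay 0.41 from Scarb1 and 0.44 from Cd68. Nearest to Cd36 were Sucla2, a subunit of the citric acid cycle enzyme succinyl-CoA ligase, at 0.04 and Sec16b, of endoplasmic reticulum exit sites, at 0.05. Nearest to Scarb1 were Tk1, thymidine kinase, at 0.01 and the mitotic kinesin gene Kif20a at 0.01. Nearest to Cd68 were Rrp15, of ribosome assembly, and Pepd, a dipeptidase, both at 0.01. Within an RMS difference of 0.1 lay 24 genes for Cd36, 657 for Scarb1 and 554 for Cd68. The deviations were not divided by the gene's SD, so these distances and counts also follow the SDs. Those were 0.47 for Cd36, 0.10 for Scarb1 and 0.14 for Cd68. With 4 arrays such likeness is a description of these hybridisations.

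Other scavenger receptors and the genes that act with them were counted in the same way. Of 20 other measured scavenger receptors, 6 (30.0%, against 35.2% of all named genes) gave signal on every array, 1 on some arrays and 13 (65.0%, against 53.7%) on none. Scarb2 (LIMP-2), the lysosomal relative of Cd36 and Scarb1, was at a level of −2.46 ± 0.19, the hyaluronan receptor gene Cd44 at 1.08 ± 0.13 and the endocytic receptor gene Lrp1 at −3.59 ± 0.41 (SD, n = 4 each). The class A receptor genes Scara3 and Scara5 were not detected on any array.

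Of 14 partners and signalling genes of these receptors, 10 (71.4%, against 35.2% of all named genes) passed on every array, 2 on some of them and 2 (14.3%, against 53.7%) on none. The lists' shares were not tested against each other or against the array. Tlr2 and Tlr6, which can signal together with Cd36, were at levels of −0.28 ± 0.27 and −2.25 ± 0.23, and the co-receptor gene Cd14 at −2.84 ± 0.27 (SD, n = 4 each). The kinase gene Src and Pdzk1, an adaptor of Scarb1 in liver, were not detected on any array.

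Genes that handle the cargo of the class B receptors, or regulate them, followed. Of 15 such genes, 11 (73.3%, against 35.2% of all named genes) passed on every array and 3 on some of them, while Apoe (6.67%, against 53.7%) passed on none. Pparg, a nuclear receptor that induces Cd36, was at 1.71, 1.61, 1.73 and 1.68, a mean level of 1.68 ± 0.05, and so varied less between arrays than either Cd36 probe. The oxysterol receptor genes Nr1h3 and Nr1h2 (LXRα and LXRβ) were at 2.30 ± 0.19 and 0.22 ± 0.30 (SD, n = 4 each).

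Of 12 genes of haemoglobin and iron handling, the field in which Cd163 acts, 9 (75%, against 35.2% of all named genes) passed on every array and 1 on some, while the iron exporter gene Slc40a1 and the haptoglobin gene Hp (16.7%, against 53.7%) passed on none. Hmox1, whose product opens the heme ring, was at a level of 2.03 ± 0.24, and the biliverdin reductase genes Blvra and Blvrb were at 0.54 ± 0.18 and 1.77 ± 0.09 (SD, n = 4 each).

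**Figure D5:**
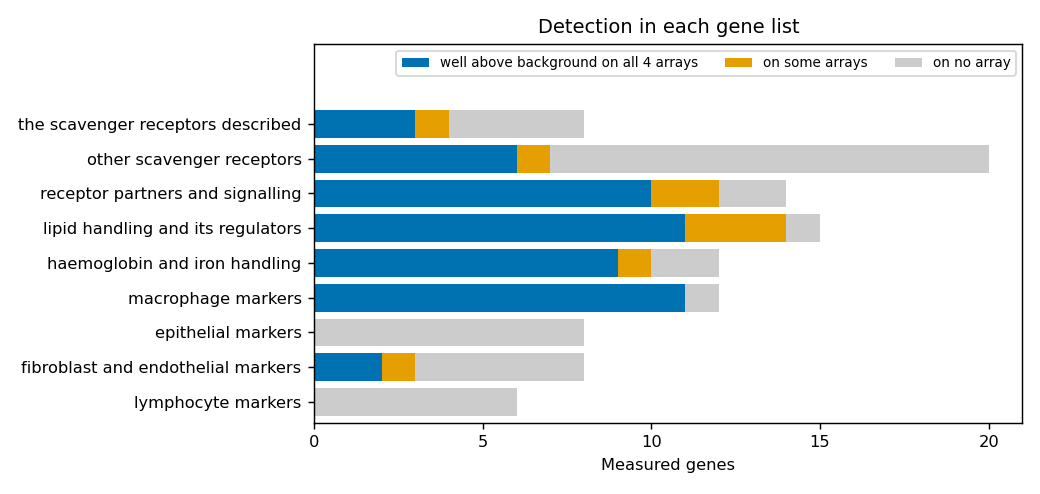
Number of measured genes (x axis) in each list by the number of arrays that called them (all 4, some, none), with the 8 measured scavenger receptors at the top. The bar of these receptors holds 3, 1 and 4 genes, and that of the 20 other scavenger receptors 6, 1 and 13.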

How the data were processed

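The deposited files hold spot intensity made by the authors with Agilent Feature Extraction 11.0.1.1, per the file headers and the submitters' processing notes. Processed intensity was background-subtracted and detrended within an array and not normalized between arrays, and the deposited files also give flags of 0 or 1. All 4 arrays lay on 1 slide. Control spots and outlier spots (486 to 723 gene spots an array) were left out of intensities, outliers being kept in calls. Log2 values of a probe's spots were averaged. The planned reference was the 75th percentile over detected probes (22.9% of 45598). Probe accessions were matched without version to RefSeq symbols of GRCr8 (21109 probes, 46.3%), used for names only. A gene's level is that of its brightest probe. The number of arrays limits the precision.

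With 1 group, no test between conditions was made; Dixon's ratio was used to mark single far arrays. Members and lists were chosen with earlier results of these data known. Named were all members, the first 3 detected and first 2 undetected genes of each other list, and the 2 genes nearest in pattern; cell type markers are named without values. Normexp (offset 50) and quantile scaling used limma 3.58.1 in R 4.3.3, with Python 3.11.15, numpy 2.4.6 and pandas 2.3.3 for the rest. The summary steps were tested on simulated data.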

Additional observations from a re-analysis of the deposited data

Results flagged for a closer look

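The level of Olr1 on replicate 2, read as −5.26, stood apart from the other 3 arrays. Its gap to the nearest of them was 0.93 of the whole range, above Dixon's critical value for 4 samples. The probe was not well above background on that array, so its level there is only a bound and the ratio is a description. It was the only one of 23 probes and genes looked at in this way to stand apart, and about 1 in 20 do so by chance. The array's 75th percentile of signal, 585 units, was the lowest of the 4, and the part of array brightness in the Olr1 reading was not tested.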

How the results depend on the processing

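The count of 3 receptors detected on all arrays stayed at 3 with every spot, any spot or only the brightest probe asked for. It was 4 above the 99th percentile of negative controls (then 44.4% of all named genes). Without replicate 2 it was 4 (then 37.8% of all named genes). Without replicate 1, 3 or 4 it was 3 (35.2% to 35.4%). The median SD of these receptors, 0.14, was 0.16 after normexp correction, 0.18 after quantile scaling and 0.49 without the filter on dim probes, where all 8 measured receptors enter, and 0.116 to 0.148 with 1 replicate left out. It stayed between 0.14 and 0.15 under the other settings. Over all named genes that entered, the median SD was 0.23. That median was 0.18 after normexp correction, 0.22 after quantile scaling and 0.46 without the filter. The SD of Cd36, at its brighter probe or as the mean over its probes, stayed between 0.33 and 0.62. For its dimmer probe the SD lay between 0.51 and 0.70 under the settings run for it. The SDs of Cd68 and Scarb1 stayed within 1.5 times of the value given. Within an array, a reference choice shifts the levels of all genes by the same amount. The median level over genes rose by 2.05 with the median of detected probes and by 5.17 with all probes. The shift differed between arrays, so SDs changed too. The SD of Scarb1 was 0.10 with the first of these references and 0.13 with the second. Dim signal limits the calls for genes near the negative controls. No paired analysis was possible because all samples form 1 group.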

Other observations

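The difference between the sides of the replicate 1 array was not particular to Cd36. The limit of column 50 was chosen after the Cd36 spots were seen. Of 899 probes printed at 10 spots with usable spots on both sides of column 50, 25 were at least 2-fold dimmer up to that column on replicate 1, and 24 had a larger drop than Cd36, the lowest at −1.62 on the log2 scale. None was at least 2-fold brighter there. The median probe went the other way from Cd36, 0.10 brighter up to column 50 than beyond it on the log2 scale. On replicates 2, 3 and 4, 0 probes differed 2-fold in either direction. Software detrending had been applied to all arrays. Of the receptors read by 1 spot, Msr1 lay in column 6 and Cd68, Colec12, Marco, Olr1, Cd163 and both Scarb1 probes lay beyond column 50.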
